A study of Mus musculus with 32 samples.

Results

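Microglia of rTg4510 mice were compared with microglia of wild type (WT) mice at 4 months of age, across all 18588 genes of the deposited table. The comparison holds 6 of the 32 microglia libraries of the series, replicates 1, 2 and 4 of each genotype at that age. They were taken by genotype and age from the labels, and replicate 3 of either genotype was left out because the authors had excluded it after failed quality control of the sequencing. The series covers both genotypes at 2, 4, 6 and 8 months, and 28 libraries passed that control. All animals were female. An rTg4510 mouse carries human tau with the P301L mutation behind a tetracycline-responsive element, and a second transgene in which the CaMKIIα promoter drives the tetracycline transactivator tTA. The transgene is therefore driven in forebrain neurons. The WT mice were littermates with neither transgene, labelled as a 129/FVB F1 strain, so no group carried tTA alone and effects of mutant tau and of tTA cannot be told apart. Each library came from forebrains pooled from 8 to 10 animals, from which cells were captured with CD11b MicroBeads after myelin removal with 30% Percoll.

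Microglia are the resident macrophages of the brain, and in the undisturbed brain they hold a set of surface receptors and transcription factors that is often called homeostatic. Near damaged neurons, protein deposits or myelin debris they take up a different program, known as that of disease-associated microglia, in which TREM2 signals through the adaptor TYROBP and lipid handling, lysosomal and growth factor genes are raised. The comparison asks which genes of the microglia differ at an age when tau pathology is present in this line.

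Values are the authors' log2 signals, median normalized, and the median gene of every library had a signal of 5.63. The lowest signals of the 6 libraries lay between 1.35 and 1.62. Libraries of 1 genotype correlated across genes with r of 0.957 to 0.961, and libraries of different genotypes with 0.915 to 0.935. The 10 highest genes together held between 42.4% and 46.2% of all linear signal in the WT libraries, and between 30.3% and 33.0% in the rTg4510 libraries. Replicate 3 of rTg4510, one of the libraries excluded by the authors, had a single gene at its lowest signal, where the other libraries of that age had 65 to 237. Microglia identity genes stood far above the median gene in all libraries. Of the 15 genes 4 were raised (C1qb, Tyrobp, Trem2 and Ctss) and 0 lowered, but 1 was raised and 2 lowered after quantile normalization. Their mean signal was 10.37, 10.35 and 10.22 in WT and 10.56, 10.58 and 10.65 in rTg4510, with Csf1r, the receptor that microglia need to survive, at 12.38, 12.29 and 12.20 and 12.16, 12.15 and 12.17.

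A gene was called a differentially expressed gene (DEG) when its false discovery rate (FDR) in the linear model was under 0.05 and its change above 1.5 fold. Of the 18588 genes, 2564 (13.8%) were DEGs. Signals were higher in rTg4510 for 1760 of them (9.47% of all genes) and lower for 804 (4.33%). These shares are the background for the counts of raised and lowered genes in the gene lists below. Changes above 4 fold were found for 130 of the raised and 41 of the lowered genes, and changes above 8 fold for 46 and 1. The log2 fold change of the median gene was -0.037. Groups did not overlap for 2496 of the DEGs, which means that all 3 libraries of one genotype lay beyond all 3 of the other. Over all genes this held for 19.1% with rTg4510 higher and for 17.5% with rTg4510 lower. In these bulk samples fewer cells of a type and less RNA per cell cannot be told apart. With only the 6 libraries of 4 months in the fit the number of DEGs was 1561, of which 1510 were also DEGs in the fit with all ages. Of the 2564 DEGs, the excluded replicate 3 lay on its own genotype's side of the midpoint for 1803 genes in rTg4510 and for 2125 genes in WT.

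**Figure D1:**
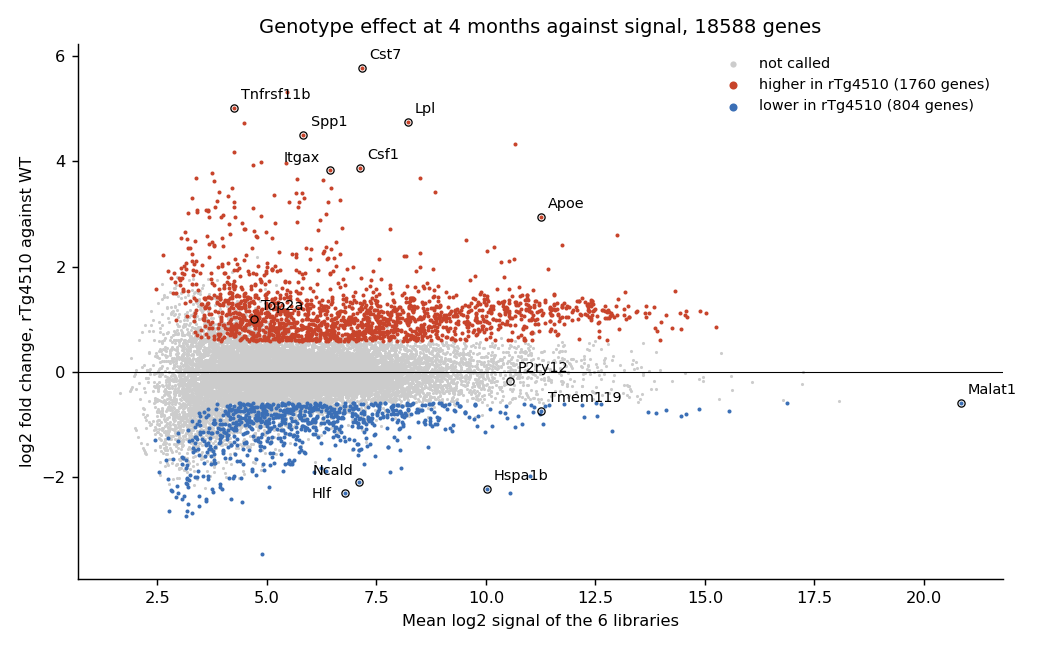
Each point is a gene, with its mean log2 signal over the 6 libraries of 4 months on the horizontal axis and its log2 fold change, rTg4510 against WT, on the vertical axis. The 1760 raised genes (red) reach a log2 fold change of 5.77 at Cst7, the 804 lowered genes (blue) are led by genes of low signal, and changes above 4 fold are rare at high signal.

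The largest changes are given for protein-coding DEGs with groups that did not overlap and with neither genotype wholly near the floor of the table. The largest rise belonged to Cst7, which encodes cystatin F, an inhibitor of lysosomal cysteine proteases. Its log2 signal was 4.45, 4.12 and 4.29 in the WT libraries and 10.003, 10.02 and 10.16 in the rTg4510 libraries, a log2 fold change of 5.77 ± 0.24 SE, FDR = 3.69e-13 or 54.6-fold. In WT it lay below the median gene and in rTg4510 far above it. Lpl, lipoprotein lipase, followed with 5.88, 5.71 and 5.94 in WT and 10.62, 10.49 and 10.64 in rTg4510 (4.74 ± 0.17 SE, FDR = 5.9e-14). Spp1, the secreted matrix protein osteopontin, went from 3.82, 3.4 and 3.52 to 8.03, 8.04 and 8.19 (4.51 ± 0.21 SE, FDR = 2.98e-12). For these genes the libraries of a genotype differed from each other by less than 0.5, so the change was many times the spread between replicates.

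Chst2, a sulfotransferase that modifies carbohydrates of glycoproteins, was the gene of highest signal among the 12 largest rises, with 8.68, 8.21 and 8.58 in WT and 12.74, 12.91 and 12.80 in rTg4510 (4.33 ± 0.17 SE, FDR = 3.37e-13). Csf1, a ligand of the receptor Csf1r, was measured at 5.27, 4.79 and 5.55 and 8.98, 8.87 and 9.35 (3.87 ± 0.28 SE, FDR = 2.63e-09). Itgax, the integrin subunit CD11c, lay at 4.54, 4.51 and 4.52 and 8.43, 8.25 and 8.42 (3.85 ± 0.11 SE, FDR = 3.59e-15). A receptor ligand and an integrin subunit that were near or below the median gene in WT thus stood above it in every rTg4510 library. Ctse, the aspartic protease cathepsin E, was at 6.68, 6.52 and 6.75 and 10.36, 10.19 and 10.46 (3.69 ± 0.16 SE, FDR = 6.99e-13). Ch25h, which makes 25-hydroxycholesterol, had 7.28, 7.28 and 6.86 and 10.44, 10.73 and 10.49 (3.41 ± 0.21 SE, FDR = 2e-10). The other members of the 12 were Fxyd6, a regulator of the sodium pump (3.97 on the log2 fold scale), Klrb1a, a C-type lectin receptor of the natural killer family (3.67, uncertain because of close paralogs), Dcstamp, which takes part in the fusion of macrophages and osteoclasts (3.65), and Ptchd1 (3.5). The choice of the 12 required that groups did not overlap.

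**Figure D2:**
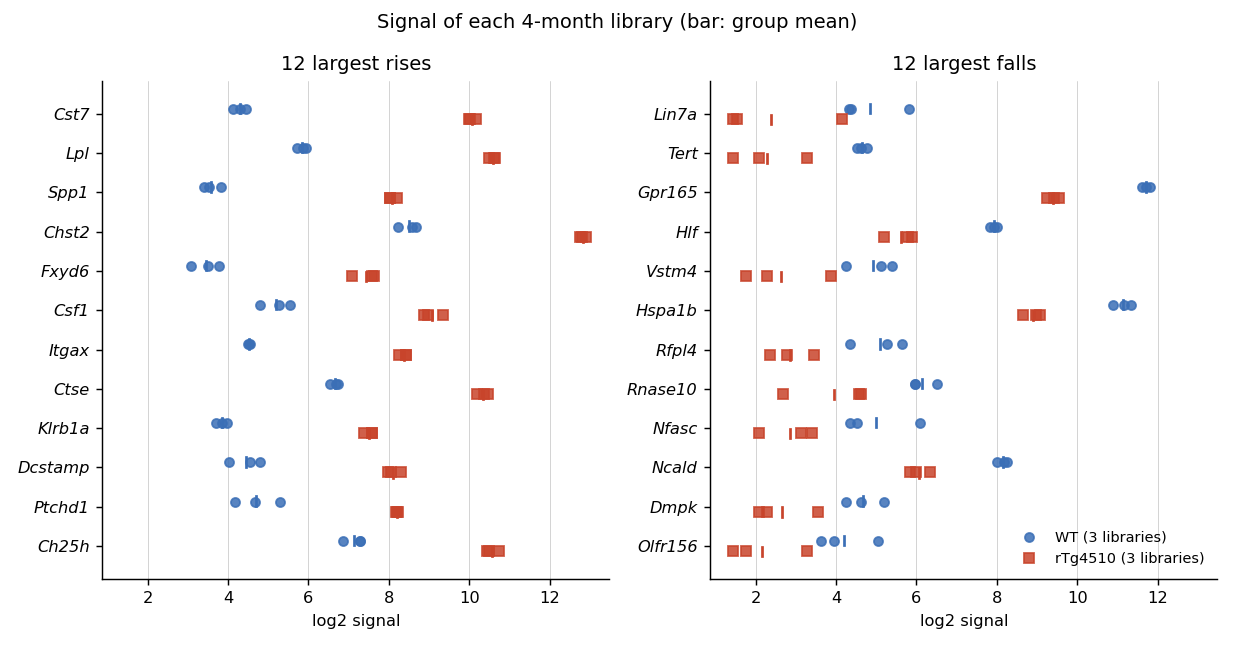
Log2 signal (horizontal axis) of each of the 6 libraries of 4 months for the 12 largest rises (left) and the 12 largest falls (right), with WT as circles, rTg4510 as squares and group means as short bars. The rises have groups far apart, though the WT libraries of Ptchd1 spread from 4.18 to 5.29. For 8 of the falls the rTg4510 groups are wide and lie below the median gene.

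For 103 DEGs, 67 raised and 36 lowered, the signals of 1 genotype were no more than 3 counts above the floor of each library, on the count steps that low values follow. A fold change is then a lower bound. The largest bound was that of Cxcl14, a chemokine, with 2.74, 3.11 and 2.77 in WT and 6.96, 6.95 and 6.68 in rTg4510, or at least 13.5-fold higher. Tnfrsf11b, the decoy receptor osteoprotegerin, had 1.82, 1.75 and 1.63 and 6.52, 6.97 and 6.78, or at least 12.5-fold higher. Both genes were close to undetected in WT and close to or above the median gene in rTg4510. The other bounds were at least 13.3-fold for Lrrtm3, a leucine-rich repeat protein of synapses, at least 11.5-fold for the apolipoprotein gene Apoc1, and at least 9.31-fold for Lox, the enzyme lysyl oxidase that cross-links collagen.

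Falls were smaller than rises, and by the same rule only 4 of the 12 largest were of genes with a signal above the median gene in WT and tight groups. Gpr165, an orphan receptor, had 11.70, 11.81 and 11.60 in WT and 9.43, 9.53 and 9.25 in rTg4510 (-2.3 ± 0.17 SE, FDR = 3.07e-09). Hlf, a transcription factor of the PAR bZIP family with a daily rhythm, had 8.0, 7.93 and 7.84 and 5.78, 5.89 and 5.2 (-2.3 ± 0.24 SE, FDR = 2.89e-07). Hspa1b, an inducible HSP70 chaperone, had 11.17, 11.34 and 10.89 and 8.64, 9.07 and 8.98 (-2.23 ± 0.47 SE, FDR = 0.00124). In these genes the lowest WT library stood above the highest rTg4510 library by more than 1.5. Ncald, a neuronal calcium sensor, was at 8.01, 8.19 and 8.26 and 5.99, 6.35 and 5.84 (-2.09 ± 0.45 SE, FDR = 0.00151). For Ncald the excluded replicate 3 was at 8.35 in WT and 8.28 in rTg4510. Its log2 fold changes at 2, 6 and 8 months were -0.18, -0.81 and -0.088, with no call. The remaining 8 were Lin7a (-2.45, SE 0.87), Tert (-2.36), Vstm4 (-2.28), Rfpl4 (-2.23), Rnase10 (-2.19), Nfasc (-2.12), Dmpk (-2.04) and Olfr156 (-2.03). Their rTg4510 libraries spread over more than 1 log2 unit, as for Lin7a with 1.55, 4.16 and 1.45 beside 4.38, 5.82 and 4.33 in WT. Of the rTg4510 libraries, replicates 1 and 4 of Lin7a and replicate 4 of Tert and Olfr156 were at the lowest value of the library, so the sizes of these falls depend on the floor. The calls of Lin7a and Olfr156 were lost in 25 and 24 of the 35 alternative fits that gave them a value.

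Genes of the disease-associated program were raised as a group. The list of 40 genes was written with earlier results of these data known, so its count is no independent evidence of direction. All 40 of its genes were measured, and 40 were DEGs with higher signal, where 9.47% of all genes were. Their median log2 fold change was 2.19. The mean signal over the list was 7.86, 7.67 and 7.75 in the WT libraries and 9.96, 9.94 and 10.07 in the rTg4510 libraries, and with all 32 libraries in the fit 39 of the genes stayed DEGs. Apoe, the lipid carrier apolipoprotein E, rose from 10.09, 9.7 and 9.54 to 12.79, 12.56 and 12.80 (2.94 ± 0.15 SE, FDR = 1.86e-11). Clec7a, the fungal glucan receptor dectin-1, had 5.58, 5.21 and 5.25 in WT and 8.04, 7.8 and 8.4 in rTg4510 (2.73 ± 0.25 SE, FDR = 4.2e-08). Axl, a receptor kinase for the uptake of dying cells, had 4.9, 4.42 and 5.01 and 8.08, 7.87 and 8.06 (3.23 ± 0.18 SE, FDR = 4.68e-11). These receptors and carriers changed by 6.65, 7.69 and 9.37 fold (Clec7a, Apoe and Axl) with groups far apart.

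Among the secreted members, Igf1, insulin-like growth factor 1, rose by 2.37 and Gpnmb, a glycoprotein of lysosome-rich macrophages, was at least 7.14-fold higher. Fabp5, a fatty acid binding protein, rose by 2.96, Lgals3, the lectin galectin-3, by 2.24, and the tetraspanins Cd63 and Cd9 by 2.15 and 1.81. The smallest changes of the list were those of Trem2 (0.61 ± 0.082 SE, FDR = 7.34e-06), Plin2, a lipid droplet coat protein (0.71), B2m, the light chain of MHC class I (0.83), and Lyz2, lysozyme (0.91). The call of Trem2 was lost after quantile normalization and without rTg4510 replicate 2. Trem2 had 10.58, 10.64 and 10.54 in WT and 11.20, 11.31 and 11.07 in rTg4510. The adaptor Tyrobp, through which TREM2 signals, rose by more, from 11.58, 11.46 and 11.29 to 12.69, 12.89 and 12.80 (1.35 ± 0.078 SE, FDR = 7.96e-11).

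Downstream of the receptor the picture was divided. Of 25 measured genes of TREM2 and SYK signalling 5 were raised (20.0% against 9.47% of all genes) and 0 lowered. The median log2 fold change was -0.2. Lower signals with an FDR under 0.05 were found for 9 of the genes, which missed only the 1.5 fold limit. Fgr, a kinase of the Src family, rose from 3.57, 3.88 and 4.05 to 6.66, 6.18 and 6.32 (2.55 ± 0.20 SE, FDR = 5.75e-09). Hcst, the adaptor DAP10, rose by 1.38 and the kinase Fyn by 0.7. No call was made for the kinase Syk (-0.35), the phospholipase Plcg2 (-0.3), the lipid phosphatase Inpp5d (-0.13) or the kinases Btk (-0.093) and Lyn (-0.27). The raised members were thus the receptor, its adaptors and 2 Src family kinases.

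Homeostatic genes were lower or little changed. Of 26 measured members 0 were raised and 11 lowered (42.31% against 4.33% of all genes), with a median log2 fold change of -0.44, and for 21 every rTg4510 library lay below every WT library. After Gpr165 the largest changes were those of Upk1b, uroplakin 1B (5.17, 5.53 and 5.02 in WT and 3.06, 3.29 and 3.3 in rTg4510, -2.02 ± 0.19 SE, FDR = 5.16e-08), the fructose transporter Slc2a5 (-1.42 ± 0.17 SE, FDR = 1.15e-06) and the crystallin gene Crybb1 (-1.26 ± 0.12 SE, FDR = 1.29e-07). Among the best known members, Tmem119 fell from 11.68, 11.71 and 11.45 to 10.80, 10.76 and 11.08 (-0.74 ± 0.12 SE, FDR = 7.75e-05). Sall1, a transcription factor of microglial identity, had -0.77 and the purinergic receptor P2ry13 -0.83. Other members missed a threshold. P2ry12, the ADP receptor, was at 10.74, 10.78 and 10.39 and 10.37, 10.59 and 10.41 (-0.18 ± 0.11 SE, FDR = 0.27), and the fractalkine receptor Cx3cr1 at 13.75, 13.90 and 13.62 and 13.19, 13.05 and 13.31 (-0.57 ± 0.11 SE, FDR = 0.000604), where only the 1.5 fold limit was missed. Quantile normalized libraries gave 15 lowered members.

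Degradative enzymes of the lysosome rose in part. Of 17 measured cathepsins and their inhibitors 10 were raised and 0 lowered, and of 36 lysosomal hydrolases 16 and 0. The proteases Ctsb (10.93, 10.78 and 10.77 in WT, 12.31, 12.15 and 12.40 in rTg4510, 1.46 ± 0.10 SE, FDR = 6.47e-10), Ctsl (1.47), Ctsz (1.29) and Ctsd (1.12) rose, as did the inhibitor Cstb (1.55). No call was made for the inhibitor Cst3 (0.0037) or the asparagine endopeptidase Lgmn (-0.12). Gla, which removes galactose from glycolipids, led the hydrolases with 5.55, 5.5 and 5.31 and 7.52, 7.47 and 7.86 (2.16 ± 0.17 SE, FDR = 6.35e-09). Acp5, the acid phosphatase of osteoclasts, followed with 1.65, the mannosidase Man2b1 with 1.39 and the galactosidase Glb1 with 1.39. Smpd1, acid sphingomyelinase, had -0.41 and the sterol transporter Npc1 -0.16, and neither was a DEG. The call of Naglu, a glucosaminidase, was lost in 27 of 36 alternative fits.

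Of 31 genes of the proton pump and the lysosomal membrane 9 were raised and 0 lowered, with a median of 0.34. They comprised the membrane proteins Cd63, Cd68 (1.07), Lamp1 (0.88) and the metal transporter Slc11a1 (1.26), and the pump subunits Atp6v0c (1.03), Atp6v1a (0.76), Atp6v1b2 (0.69) and Atp6v1f (0.82). Atp6v1f was the only one of 448 genes followed through the alternative fits that changed sign, to -0.066 with all 32 libraries. The subunit Atp6v0d2 was near the lowest values in WT and at least 1.69-fold higher in rTg4510.

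Lipid genes divided by route. Of 34 genes of apolipoproteins and lipid handling 15 were raised and 0 lowered. The apolipoprotein gene Apoa2, not a member of this list, was a lowered DEG (-1.08 ± 0.13 SE, FDR = 2.53e-06). Its call was lost with only the 6 libraries of 4 months in the fit. Besides Lpl, Apoe and Ch25h, the apolipoprotein genes Apoc1, Apoc2 and Apoc4, which lie beside Apoe on the genome, were near the lowest values in WT and at least 11.5, 3.04 and 3.5-fold higher in rTg4510. Acaca, which starts fatty acid synthesis, rose by 1.88 ± 0.068 SE, FDR = 6.2e-14, and Dgat2, which makes triglycerides, by 1.43 ± 0.25 SE, FDR = 0.000178. Soat1, which esterifies cholesterol, and the sterol exporter Abcg1 rose by 0.92 and 0.9. The exporter Abca1 had 0.2 and the desaturase Scd1 -0.74, with no call for either. The 26 measured genes of cholesterol synthesis had a median log2 fold change of 0.033.

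Chemokine genes changed in both directions. Of 27 measured genes 10 were raised and 3 lowered. The chemokines Ccl3 and Ccl4, which attract macrophages, had signals of 12.14, 11.33 and 11.57 in WT and 14.18, 14.04 and 14.65 in rTg4510 for Ccl3 (2.61 ± 0.34 SE, FDR = 5.64e-06) and a log2 fold change of 2.51 ± 0.36 SE, FDR = 2.01e-05 for Ccl4. Cxcl13, which attracts B cells, rose by 3.27, Ccl6 by 2.26, Cxcl16 by 2.0 and the receptor Cxcr4 by 1.6. Ccl2, which draws monocytes through Ccr2, had 9.6, 8.81 and 8.44 in WT and 8.37, 8.51 and 8.6 in rTg4510 (-0.46 ± 0.31 SE, FDR = 0.327), with no call. Ccr2 itself fell by 1.05, and Cxcl12 and Ccl24 had -1.19 and -0.71, calls that were lost in 22 and 23 of 36 alternative fits.

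Cytokine genes and feedback genes of NF-kappaB rose in part. Of 43 genes 21 were raised and 0 lowered, with a median of 0.68. Il1b, interleukin-1β, had 6.6, 5.73 and 6.42 in WT and 7.81, 7.98 and 8.3 in rTg4510 (1.78 ± 0.27 SE, FDR = 3.71e-05). Tnf rose by 1.91 ± 0.40 SE, FDR = 0.00115, and Il1rn, the natural antagonist of the interleukin-1 receptor, by 2.59 ± 0.38 SE, FDR = 2.36e-05. Among the inhibitors that NF-kappaB itself induces, Nfkbia rose by 1.41 ± 0.32 SE, FDR = 0.00234 and Tnfaip3, the ubiquitin-editing enzyme A20, from 8.7, 8.22 and 8.57 to 9.37, 9.27 and 10.11 (1.09 ± 0.29 SE, FDR = 0.00916). The survival genes Bcl2a1a, Bcl2a1b and Bcl2a1d rose by 1.82, 1.95 and 1.33, values that are uncertain because these copies are near-identical. Of the subunits, Relb (0.68) and Nfkb2 (0.65) were DEGs, and Rela (0.1), Rel (-0.24) and Nfkb1 (-0.0073) were not.

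Promoters were searched on both strands for the NF-kappaB consensus, within 250 bases before and 50 bases after the start in the RefSeq annotation of GRCm38.p6. A match was found in 72 of 862 promoters of raised genes (8.35%), 24 of 494 of lowered genes (4.86%), 1175 of 27025 in all (4.35%) and 581 of 11802 of genes tested (4.92%). Within the list it was found in 9 of 35 promoters (25.7%), so members that were not DEGs held it as well. Of 18 raised genes 6 held it, which were Bcl3, Csf1, Il6, Nfkb2, Nfkbia and Tnfaip3. Promoters were held for 11802 of the 18588 genes. The promoter of Tnfaip3 is shown as an example, because this gene is both a raised member and an inhibitor of the pathway. Its 2 matches, in capitals, lie 125 to 116 and 12 to 3 bases before the start. A match of letters is a description and not a binding site.
Tnfaip3, chr10:19015361-19015660, minus strand: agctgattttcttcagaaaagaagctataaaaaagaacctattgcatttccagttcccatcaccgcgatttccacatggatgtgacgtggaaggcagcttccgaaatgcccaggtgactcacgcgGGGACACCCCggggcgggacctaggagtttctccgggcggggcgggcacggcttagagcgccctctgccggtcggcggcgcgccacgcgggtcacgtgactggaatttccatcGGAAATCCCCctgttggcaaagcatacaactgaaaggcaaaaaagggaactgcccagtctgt

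Interferon response genes were raised in part. Of 35 genes 7 were raised and 0 lowered, led by Cxcl10 (2.35 ± 0.46 SE, FDR = 0.000602), Ifi27l2a (1.51) and the nucleic acid sensor Zbp1 (1.24). Isg15, a ubiquitin-like protein of the antiviral response, had 3.65, 3.61 and 5.15 in WT and 4.52, 5.07 and 4.6 in rTg4510 (0.59 ± 0.41 SE, FDR = 0.345), with no call. In MHC class I, which presents peptides to CD8 T cells, 5 of 19 genes were raised, among them H2-D1 (1.32), H2-K1 (0.93) and B2m. Reads of the H2 genes are uncertain because these genes resemble each other. In MHC class II the chaperone H2-DMa alone of 11 genes was a DEG (0.89), and Cd74 had 0.33. The raised share of this list, 9.09%, was near the 9.47% of all genes. Of 21 complement genes 5 were raised and 1 lowered. C3 rose from 3.81, 3.3 and 3.61 to 5.01, 4.91 and 5.13 (1.44 ± 0.15 SE, FDR = 3.08e-07), its receptor C3ar1 by 1.2 and Cfb by 1.46, and Cfp, properdin, had -0.77.

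Surface receptors changed in both directions. Of 29 Fc, lectin and Siglec receptors 10 were raised and 2 lowered (34.48% and 6.897%). Siglecf (1.88) and Fcgr4, an activating Fc receptor (1.56), rose, and Siglece (-0.76) and Clec4a2 (-0.87) fell. Of 23 genes of Toll-like receptors 4 were raised and 1 lowered, where 9.47% and 4.33% of all genes were, and 2 were raised after quantile normalization or with only the 6 libraries of 4 months. Tlr2, a sensor of lipoproteins, had 8.7, 8.51 and 8.57 in WT and 9.98, 9.92 and 10.27 in rTg4510 (1.46 ± 0.12 SE, FDR = 7.8e-09), its partner Tlr1 had 1.03 and the co-receptor Cd14 0.91. Tlr4 (-0.24) and Tlr7 (0.13) gave no call, and Tlr5 had -1.24. Of 37 potassium channels and G-protein-coupled receptors 9 were raised and 8 lowered (24.32% and 21.62%). Kcnj2, the inward rectifier of microglia, rose from 7.17, 6.86 and 7.19 to 9.26, 9.15 and 9.44 (2.21 ± 0.22 SE, FDR = 1.27e-07), the thrombin receptor F2r by 1.88, and the channels Kcna3 and Kcnn4 by 1.18 and 1.11. The adrenergic receptor Adra2a had -1.9. In purinergic signalling 2 of 16 genes were raised and 3 lowered (12.5% and 18.75%, beside 9.47% and 4.33% of all genes). The ATP-gated channel P2rx4 (0.83) rose and the ADP receptor P2ry1 (-1.49) fell. With only the 6 libraries of 4 months 1 of the 16 was raised and 0 lowered.

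Secreted and matrix genes had 15 raised and 1 lowered of 35. Plaur, the urokinase receptor, rose from 4.6, 4.48 and 5.35 to 7.66, 7.11 and 7.74 (2.69 ± 0.27 SE, FDR = 1.97e-07), urokinase itself, Plau, by 1.5, the elastase Mmp12 by 1.7 and Grn, progranulin, by 1.26. Mmp9, a protease of neutrophil granules, had -0.94. Of 23 integrin and adhesion genes 5 were raised, among them Itga5 (1.3), Alcam (1.59) and Cadm1 (1.91) beside Itgax, and 2 lowered, Itga9 (-0.86) and Itgb7 (-0.62), whose call was lost in 17 of 35 alternative fits. In the TGF-beta pathway, which maintains the homeostatic state, 3 of 30 genes were raised and 2 lowered. The raised share of this list was near the 9.47% of all genes, and the lowered share was 6.667% beside 4.33%. The pseudoreceptor Bambi (1.82) and the ligand Tgfb2 (1.43) rose, the co-receptors Tgfbr3 (-1.07) and Eng (-0.59) fell, and Tgfb1 (-0.22) and Smad3 (-0.43) gave no call. Of 43 transcription factors 3 were raised, Bhlhe40 (1.73 ± 0.32 SE, FDR = 0.000309), Hif1a (1.42) and Mitf (0.62), and 2 lowered, Sall1 and Maf (-0.73). Spi1, which encodes the lineage factor of macrophages, had 9.55, 9.48 and 9.39 in WT and 9.58, 9.42 and 9.79 in rTg4510 (0.12 ± 0.10 SE, FDR = 0.431). The share of factors that changed was near that of all genes, 9.47% and 4.33%.

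Ribosomal protein genes formed the most uniform group. All 79 measured genes of the cytosolic ribosome were raised, with a median log2 fold change of 1.06 and a range from 0.65 (Rpl34) to 1.46 (Rpl39). The mean signal over the list was 8.04, 7.94 and 7.69 in the WT libraries and 8.86, 9.07 and 8.93 in the rTg4510 libraries. Rps6, a protein of the small subunit, had 8.94, 8.75 and 8.58 in WT and 9.67, 9.92 and 9.87 in rTg4510 (1.06 ± 0.095 SE, FDR = 3.73e-08). Rplp0, of the large subunit, had 1.14 ± 0.10 SE, FDR = 1.56e-08. Quantile normalization left 77 of the 79 raised and the fit of all 32 libraries 74. Reads of these genes are uncertain in part, since processed pseudogenes resemble them. Of 199 pseudogenes named after a ribosomal protein gene 151 were raised and 0 lowered, with a median of 1.08. Over all pseudogenes 20.7% were raised, and 3.92% lowered, against 7.58% and 4.15% of protein-coding genes.

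Energy genes rose less evenly. Of 75 subunits of oxidative phosphorylation 31 were raised and 0 lowered, with a median of 0.49. Cox6a2, an isoform of cytochrome oxidase known from heart and muscle, led them with 5.35, 5.64 and 4.93 in WT and 7.65, 7.71 and 7.56 in rTg4510 (2.33 ± 0.31 SE, FDR = 6.22e-06), followed by the complex I subunits Ndufa1 (1.45) and Ndufc1 (1.16). Subunits with no call included Ndufs1 (-0.046) and Ndufv1 (-0.24) of complex I, Sdha of complex II (0.11) and Atp5a1 of ATP synthase (0.28). Of 30 genes of glycolysis and hypoxia 15 were raised and 0 lowered, with a median of 0.7. Enzymes of the pathway rose, Gpi1 by 0.9, Pfkl by 0.68 (a call lost with all 32 libraries), Aldoa by 1.19, Tpi1 by 1.19, Gapdh by 1.14, Pgk1 by 1.29, Pgam1 by 0.98, Eno1 by 0.84 and Pkm by 1.1. Gapdh had 7.58, 7.52 and 7.47 in WT and 8.58, 8.54 and 8.88 in rTg4510. The hexokinases Hk1 (-0.22), Hk2 (0.1) and Hk3 (-0.28), which start the pathway, gave no call, while the lactate exporter Slc16a3 rose by 1.24.

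**Figure D3:**
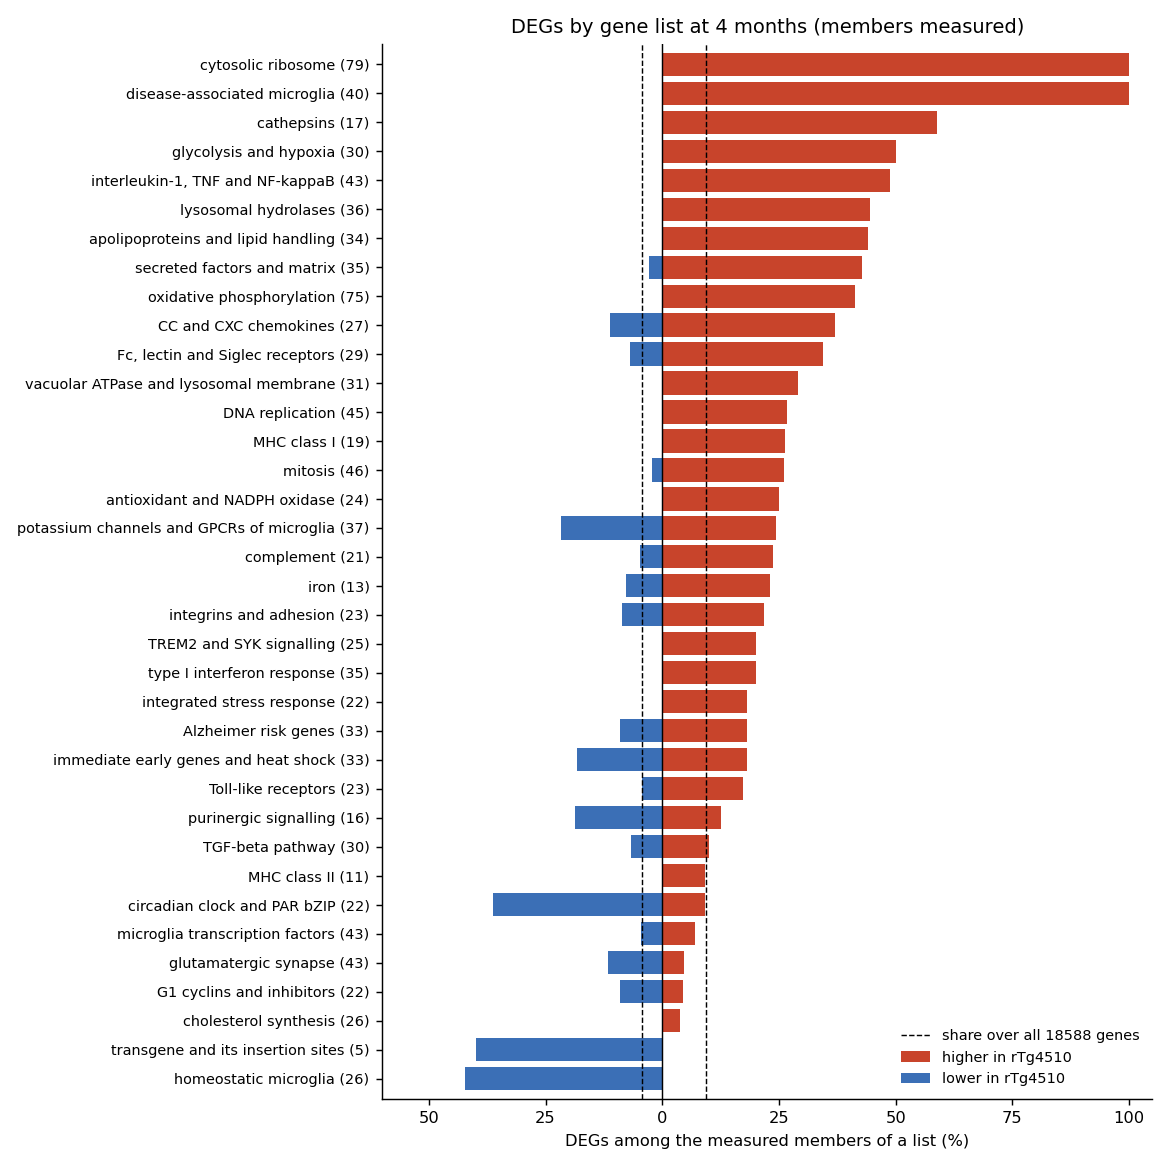
Share of the measured members of each gene list (number in parentheses) that were DEGs at 4 months, raised to the right in red and lowered to the left in blue, in percent. Dashed lines mark the shares over all genes, 9.47% raised and 4.33% lowered. All members of the disease-associated and ribosomal lists were raised, and homeostatic and clock genes had the largest lowered shares among lists of more than 5 genes.

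Cell cycle genes were in part higher in rTg4510 at 4 months. Of 46 measured genes of mitosis 12 were raised and 1, the condensin subunit Ncaph, lowered, with a median log2 fold change of 0.56. The mean signal over the list was 4.42, 4.13 and 3.88 in the WT libraries and 4.66, 4.79 and 4.57 in the rTg4510 libraries, all below the median gene. Top2a, the topoisomerase that untangles chromosomes, had 4.57, 4.27 and 3.75 in WT and 5.17, 5.37 and 5.08 in rTg4510 (1.01 ± 0.20 SE, FDR = 0.000718). Cdk1, the kinase that starts mitosis, had 4.36, 4.41 and 3.28 and 5.44, 5.92 and 4.94 (1.42 ± 0.35 SE, FDR = 0.005), and Mki67, the proliferation marker Ki-67, 5.01, 4.96 and 4.48 and 5.79, 5.51 and 5.64 (0.83 ± 0.16 SE, FDR = 0.00046). Each of these genes had low signals in WT and higher ones in every rTg4510 library. The count depends on the low-signal genes and on single libraries. It was 1 among the 12 members that remained after genes under the 25th percentile of signal were left out, and 2 with only the 6 libraries of 4 months in the fit. It was 5 without WT replicate 4, 7 without rTg4510 replicate 2 and 19 without WT replicate 1, and 12 with all 32 libraries.

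DNA replication had 12 raised and 0 lowered of 45 genes, with a median of 0.35. The raised numbered 5 without genes under the 25th percentile of signal and 7 with only the 6 libraries of 4 months. Mcm6, a subunit of the replicative helicase, had 4.14, 3.86 and 3.47 in WT and 5.06, 5.06 and 5.2 in rTg4510 (1.28 ± 0.18 SE, FDR = 1.79e-05). Uhrf1, which maintains DNA methylation after replication, had 1.35 ± 0.26 SE, FDR = 0.000509, and Pcna, the sliding clamp, 6.9, 6.72 and 6.72 and 7.34, 7.57 and 7.56 (0.71 ± 0.12 SE, FDR = 7.83e-05). Helicase, clamp and polymerase genes (Pole, 0.84, and Pole2, 0.9) were thus among the raised. Of 22 genes of G1 cyclins and inhibitors E2f1, an activator of S phase genes, rose by 1.32, whereas the cyclin gene Ccnd1 (-1.07) and E2f3 (-0.6) fell. The raised and lowered shares of this list were 4.5% and 9.1%, beside 9.47% and 4.33% of all genes.

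Promoters of these lists were searched for letters known from cell cycle genes, on both strands. The cell cycle homology region, TTTGAA, was in 28 of 38 mitosis promoters (73.7%), including those of 9 of 11 raised genes, in 5 of 36 replication promoters (13.9%) in 18.1% of all promoters and in 12.6% of those of genes tested. E2F letters (TTTGGCGC, TTTCGCGC, TTTCCCGC or TTTGCCGC, which can overlap their own reverse complement) were in 13 of 36 replication promoters (36.1%), in 3 of 38 mitosis promoters (7.89%), in 2.32% of all promoters and in 4.02% of those of genes tested. Genes of the lists that were not DEGs held them as well. The promoters of Top2a and Cdk1 are shown with TTTGAA and its reverse complement in capitals, and that of Mcm6 with the E2F letters in capitals. In Top2a a match lies 23 to 18 bases before the start, in Cdk1 15 to 10 bases before it, and in Mcm6 47 to 40 bases before it.
Top2a, chr11:99024140-99024439, minus strand: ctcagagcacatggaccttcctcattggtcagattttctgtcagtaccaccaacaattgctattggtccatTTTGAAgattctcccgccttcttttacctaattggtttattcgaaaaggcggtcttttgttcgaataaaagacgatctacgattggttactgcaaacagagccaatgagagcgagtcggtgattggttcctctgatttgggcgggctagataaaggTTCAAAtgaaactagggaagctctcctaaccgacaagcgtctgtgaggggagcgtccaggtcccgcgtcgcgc
Cdk1, chr10:69352863-69353162, minus strand: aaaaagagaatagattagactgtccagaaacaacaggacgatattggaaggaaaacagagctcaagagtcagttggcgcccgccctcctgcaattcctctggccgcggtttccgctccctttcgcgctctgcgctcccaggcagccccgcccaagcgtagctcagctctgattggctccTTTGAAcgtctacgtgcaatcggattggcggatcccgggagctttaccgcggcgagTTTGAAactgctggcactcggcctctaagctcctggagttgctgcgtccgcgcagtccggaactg
Mcm6, chr1:128359656-128359955, minus strand: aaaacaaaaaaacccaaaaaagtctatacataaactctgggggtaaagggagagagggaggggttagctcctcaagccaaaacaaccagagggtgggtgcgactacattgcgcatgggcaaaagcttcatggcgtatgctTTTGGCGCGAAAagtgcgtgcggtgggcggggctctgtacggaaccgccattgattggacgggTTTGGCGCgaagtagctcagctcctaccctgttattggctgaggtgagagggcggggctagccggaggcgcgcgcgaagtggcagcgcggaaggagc

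The median genotype effect on mitosis genes had the opposite sign at the other ages. The median log2 fold change of the 46 genes was 0.56 at 4 months, but -0.17 at 2 months and -0.62 and -0.49 at the later ages. The mean signal over the list in rTg4510, with its SD over 3 or 4 libraries, was 4.67 ± 0.113 at 4 months, after 3.95 ± 0.107 at 2 months and before 3.88 ± 0.0817 and 3.94 ± 0.0758 at the later ages. In WT it was 4.14 ± 0.273 at 4 months, 4.16 ± 0.117 at 2 months, and 4.44 ± 0.109 and 4.39 ± 0.0709 later. The rTg4510 libraries of 4 months thus stood above those of the other ages, and the WT means of 6 and 8 months were above that of 4 months. By the test of the difference between ages, the effect at 4 months was higher than at 2 months for 13 of the 46 genes, than at 6 months for 6 and than at 8 months for 4, where 3.77%, 0.118% and 0.102% of all genes were. These 3 tests share the libraries of 4 months. Top2a had log2 fold changes of -0.56, -0.9 and -0.85 at 2, 6 and 8 months, and Mki67 of -0.34, -1.13 and -0.62 at 2, 6 and 8 months.

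**Figure D4:**
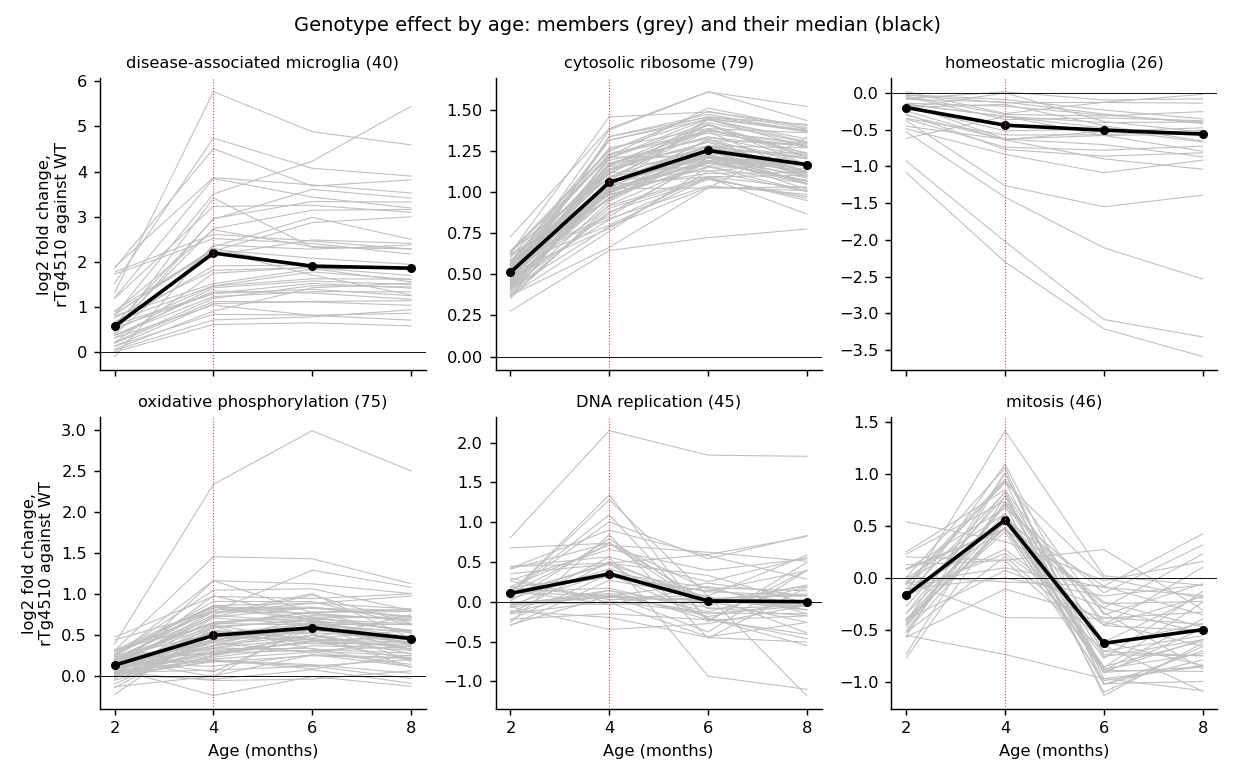
Log2 fold change, rTg4510 against WT (vertical axis, scaled for each panel), at 2, 4, 6 and 8 months of age (horizontal axis) for the members of 6 gene lists in grey and their median in black, with the 4-month comparison dotted. Medians of disease-associated and ribosomal genes stay high after 4 months, whereas the median of mitosis genes is 0.56 at 4 months and below 0 at the other ages.

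Clock output genes were lower. Of 22 measured genes of the circadian clock 2 were raised and 8 lowered. The lowered genes included the 3 PAR bZIP factors Hlf, Dbp (6.36, 6.08 and 6.06 in WT, 5.13, 5.43 and 5.02 in rTg4510, -0.97 ± 0.18 SE, FDR = 0.000303) and Tef (-0.83), the repressors Nr1d1 (-1.22 ± 0.27 SE, FDR = 0.00191) and Nr1d2 (-0.7), Per2 (-0.77) and Per3 (-1.21). The core activators Arntl (-0.08) and Clock (-0.2) and the period gene Per1 (0.012) gave no call. Hours of tissue collection are not given in the sources used here, so their part in these values was not tested. At 6 months the log2 fold change of Hlf was -3.81 and that of Dbp -0.73.

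Heat shock and immediate early genes changed in both directions. Of 33 genes of both classes 6 were raised and 6 lowered. Beside Hspa1b, its near-identical neighbour Hspa1a had 12.11, 12.09 and 11.78 in WT and 9.64, 10.13 and 10.24 in rTg4510 (-1.99 ± 0.45 SE, FDR = 0.00236), and values of the pair are uncertain for that reason. The co-chaperones Hsph1 (-0.99 ± 0.21 SE, FDR = 0.00125) and Dnajb1 (-0.9) and the constitutive Hspa8 (-0.62) were lower, the mitochondrial co-chaperone Hspe1 rose by 0.67, and Hsp90aa1 (-0.39) gave no call. Egr2 (1.48 ± 0.20 SE, FDR = 7.2e-06), Nr4a1 (1.4) and Egr3 (1.1) rose, Ier5 fell (-0.75), and Fos (0.012), Jun (-0.54) and Egr1 (-0.1) gave no call. Heat shock and immediate early genes can respond to the dissociation of tissue, and the part of handling in these values was not tested. The inverted heat shock repeats GAANNTTC and TTCNNGAA were searched on both strands. They were in the promoters of 3 of 5 lowered genes of the list (Hspa1a, Hspa1b and Hsph1), 7 of 27 of the whole list (25.9%), 15.1% of all promoters and 12.2% of those of genes tested. The promoter of Hspa1b is shown with the match in capitals, 104 to 97 bases before the start.
Hspa1b, chr17:34959189-34959488, minus strand: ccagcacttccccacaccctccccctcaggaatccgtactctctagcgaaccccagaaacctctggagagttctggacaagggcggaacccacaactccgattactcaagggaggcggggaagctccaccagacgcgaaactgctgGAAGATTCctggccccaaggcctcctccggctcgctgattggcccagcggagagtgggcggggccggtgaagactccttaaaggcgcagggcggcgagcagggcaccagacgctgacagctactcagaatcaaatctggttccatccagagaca

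Stress and metal genes changed in small numbers. In the integrated stress response 4 of 22 genes were raised (18.18%, beside 9.47% of all genes). These were the serine and asparagine synthesis genes Psat1 (1.93 ± 0.26 SE, FDR = 6.32e-06) and Asns (1.3 ± 0.36 SE, FDR = 0.0102), the folate enzyme Mthfd2 (0.88) and Chac1 (at least 2.24-fold higher), while Atf4 (-0.0047) and Ddit3 (-0.1) gave no call. Of 24 antioxidant and NADPH oxidase genes 6 were raised, among them Cybb, the oxidase's catalytic subunit (1.19), Prdx1 (1.1) and Srxn1 (1.11). Without WT replicate 4 the raised genes numbered 2 in the integrated stress response and 3 among the antioxidant and oxidase genes. Of 13 iron genes 3 were raised and 1 lowered (23.08% and 7.692%, beside 9.47% and 4.33% of all genes). Fth1, the heavy chain of ferritin, had 12.59, 12.26 and 12.42 in WT and 13.82, 13.99 and 13.998 in rTg4510 (1.51 ± 0.13 SE, FDR = 1.66e-08), and Ftl1, the light chain, 0.81. Slc40a1, the iron exporter ferroportin, fell from 7.87, 7.81 and 7.68 to 6.84, 7.04 and 6.77 (-0.9 ± 0.10 SE, FDR = 3.26e-07). The 2 ferritin genes and the exporter Slc40a1 therefore differed in sign.

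Of 43 measured genes of the glutamatergic synapse 2 were raised, Adcy3 (1.31 ± 0.14 SE, FDR = 3.12e-07) and Cacna1a (0.86), and 5 lowered, Grin2c (at least 2.3-fold lower), Shank3 (-1.46 ± 0.40 SE, FDR = 0.00961), Adcy8 (-1.35), Dlgap1 (-0.95) and Prkca (-0.84). Gria2, a subunit of the AMPA receptor, had 3.7, 3.9 and 4.39 in WT and 3.94, 1.75 and 2.61 in rTg4510, with no call. The raised share was below and the lowered share above that of all genes. Of 33 genes linked to Alzheimer's disease by genetic risk or by amyloid production 6 were raised and 3 lowered. These shares were 18.18% and 9.091%, beside 9.47% and 4.33% of all genes. Beside Apoe and Trem2 these were Pld3, a lysosomal exonuclease (7.68, 7.5 and 7.58 and 9.22, 9.19 and 9.16, 1.61 ± 0.076 SE, FDR = 3.64e-12), Ms4a6c (0.73), Psen2 (0.63) and Ptk2b (0.59), and the lowered Bace1, the β-secretase (-0.94), Cass4 (-1.04) and Epha1 (-0.75). Bin1 (-0.36), Clu (-0.29), Picalm (-0.2) and Cd33 (-0.28) gave no call.

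The transgene was examined in every library. Mapt, the mouse tau gene, had 5.23, 4.14 and 5.6 in WT and 4.88, 3.91 and 4.3 in rTg4510 (-0.63 ± 0.48 SE, FDR = 0.397), with excluded replicate 3 at 5.73 in WT and 4.34 in rTg4510. Prnp, the prion protein gene whose sequences flank tau in the transgene, had 6.98, 7.16 and 7.47 and 8.31, 8.61 and 8.08 (1.13 ± 0.42 SE, FDR = 0.0563), with 7.0 and 4.78 in the excluded libraries. Neither was a DEG, and for Prnp the groups did not overlap. The transgene's human sequence is not a separate row of the table, so it was not checked directly. Wdr60 and Esyt2 lie with Ncapg2 at the known insertion site of the tTA transgene. Wdr60 had 5.45, 5.42 and 5.48 in WT and 4.68, 4.39 and 4.46 in rTg4510 (-0.94 ± 0.12 SE, FDR = 2.93e-06), and Esyt2 6.05, 6.02 and 5.87 and 5.09, 4.96 and 5.25 (-0.88 ± 0.088 SE, FDR = 1.57e-07). The log2 fold changes of Wdr60 were -0.73, -1.01 and -0.72 at 2, 6 and 8 months, and those of Esyt2 -0.93, -0.62 and -0.9 at 2, 6 and 8 months, while Ncapg2 had -0.38 at 4 months with no call.

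Long non-coding RNA genes were called in both directions, 53 raised (6.26%) and 49 lowered (5.79%) of 846 measured. The largest rises chosen in the same way were those of 4930556M19Rik, with 1.5, 2.03 and 3.04 in WT and 5.85, 5.22 and 5.77 in rTg4510 (3.42 ± 0.60 SE, FDR = 0.000184), Mexis (1.94 ± 0.45 SE, FDR = 0.00309), which is known to act at the sterol exporter gene Abca1 in macrophages, and F630206G17Rik (1.94). The largest falls with groups apart and neither genotype wholly near the floor were those of 1700095B10Rik (-2.19 ± 0.20 SE, FDR = 6.35e-08), Gm17597 (-2.13) and 0610038B21Rik (-1.99). Malat1, the gene of largest signal in every library, had 21.18, 20.99 and 21.24 in WT and 20.61, 20.45 and 20.57 in rTg4510 (-0.59 ± 0.10 SE, FDR = 9.98e-05). Whether reads were counted by strand is not given in the sources used here, so genes that overlap others on the opposite strand are uncertain.

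The effects of 4 months were set beside those of the other ages, whose libraries are different ones. At 2 months 368 genes were called (1.98%), at 6 months 3689 (19.8%) and at 8 months 2950 (15.9%). Raised at 2 months were 293 genes (1.58%), and 269 of them (91.8%) were among the 1760 of 4 months, of which they made 15.3%. Of the 2101 genes raised at 6 months (11.3%), 1488 were shared (84.5% of those of 4 months and 70.8% of those of 6 months), and of the 1952 raised at 8 months (10.5%), 1407 (79.9% and 72.1%). Genes lowered at the ages of 2, 6 and 8 months numbered 75 (0.403%), 1588 (8.54%) and 998 (5.37%). They had 57, 559 and 471 genes in common with the 804 of 4 months, which are 7.09%, 69.5% and 58.6% of the genes lowered at 4 months and 76.0%, 35.2% and 47.2% of those lowered at the other age. The 1760 raised genes had a median log2 fold change of 1.04 at 4 months, compared with 0.385 earlier, at 2 months, and 1.13 and 1.07 later, at 6 and 8 months. There were 398 genes called at 4 months and at no other age, 197 raised and 201 lowered. Examples are the GTP-binding protein gene Rem1 (2.5, 3.36 and 2.68 in WT, 5.77, 5.41 and 5.22 in rTg4510, 2.62 ± 0.45 SE, FDR = 0.000159) and the telomerase gene Tert (-2.36 ± 0.61 SE, FDR = 0.00675). A call at 4 months alone does not show that the effects differ between ages.

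Tested directly, the genotype effect differed between 4 and 2 months for 867 genes (4.66%), 701 with the higher value at 4 months (3.77%) and 166 with the lower (0.893%). It differed between 4 and 6 months for 29 genes (0.156%), 22 higher and 7 lower (0.0377%), and between 4 and 8 months for 26 (0.14%), 19 higher and 7 lower. Of the disease-associated list, 37 of 40 had a higher effect at 4 than at 2 months. Cst7 is an example, with log2 fold changes of 1.32, 4.88 and 4.59 at 2, 6 and 8 months beside 5.77 at 4 months. Homeostatic genes had 4 of 26 with a lower effect at 4 than at 2 months, and ribosomal genes 33 of 79 with a higher one. Against 6 months, genes with the higher effect at 4 months were led by Pimreg, a mitotic regulator, and Dtl, which marks replication proteins for destruction. Pimreg was itself not a DEG at 4 months. Their log2 fold changes were 1.31 and 1.52 at 4 months and -2.46 and -0.7 at 6 months. The count of 29 rests on single libraries, and fell to 6 without WT replicate 4 or rTg4510 replicate 2 of 4 months.

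Markers of other cells that a CD11b preparation can hold were mostly lower in rTg4510. The log2 of their summed linear signal ranged over 10.93 to 11.68 in WT and 10.56 to 10.80 in rTg4510 for 11 border macrophage markers, 1 of them lowered (Stab1, -0.73), 0 without WT replicate 1 and 4 without WT replicate 4 or with all 32 libraries, with Mrc1 at 9.93, 9.58 and 9.26 and 8.84, 9.23 and 9.11. For 12 neutrophil markers it was 9.86 to 10.77 in WT and 9.64 to 10 in rTg4510, with Mmp9 lowered (4 markers with moderated variances or upper quartile scaling) and S100a8 at 8.02, 7.29 and 7.98 and 7.07, 7.04 and 6.34. For 9 monocyte markers, with Ccr2 and Treml4 lowered (the call of Treml4 was lost in 24 of 35 alternative fits) and Nr4a1, which microglia also express, raised, it was 8.72 to 8.92 in WT and 9.22 to 9.55 in rTg4510. The monocyte sum was higher in rTg4510 although most of its markers were lower, and Nr4a1 had the highest signal among them. The mean log2 signal of the markers of neurons, astrocytes, neutrophils, monocytes and border macrophages was lower, and that of microglia identity genes higher in the deposited scaling, in each rTg4510 library than in any WT library. The exact two-sided permutation p was 0.1 for each of these 6 lists, the smallest that 3 against 3 allow. For neutrophils the separation was nearly a tie, with WT replicate 2 at 5.175 and rTg4510 replicate 2 at 5.172. The identity genes did not move together. Of the 15, 8 had every rTg4510 library above every WT library and 3 had every one below, where 19.1% and 17.5% of all genes did.

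None of 9 neuronal markers and none of 11 astrocyte markers was a DEG at 4 months, and the median log2 fold changes were -0.51 and -0.41. Snap25 had 5.11, 4.91 and 3.95 in WT and 3.83, 3.61 and 2.94 in rTg4510, and the summed neuronal signal was 7.0 to 7.43 in WT and 6.55 to 6.77 in rTg4510. For 13 oligodendrocyte markers the sum was 8.16 to 9.24 in WT and 7.99 to 8.96 in rTg4510, with Cspg4 alone raised, from near the lowest values. For 12 endothelial and pericyte markers it was 8.43 to 9.08 in WT and 7.9 to 8.55 in rTg4510, with Pecam1 (-1.35) and Vtn (-1.14) lowered and Flt1 (0.98) raised. B cell markers (12.20 to 12.40 in WT and 12.48 to 12.55 in rTg4510) held the lowered Cd79a (-1.64) and Cd79b (-0.77) and the raised Cd22 (2.69), and T and NK cell markers (7.12 to 8.0 in WT and 7.23 to 7.61 in rTg4510) the lowered Ncr1 (-1.74) and the raised Klrb1c (1.94). The sums were 10.06 to 12.99 in WT and 10.50 to 11.79 in rTg4510 for choroid plexus and 6.67 to 8.37 in WT and 5.85 to 7.77 in rTg4510 for red blood cells, with no DEG in either. The part of other cells in the lowered genes above was not tested.

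**Figure D5:**
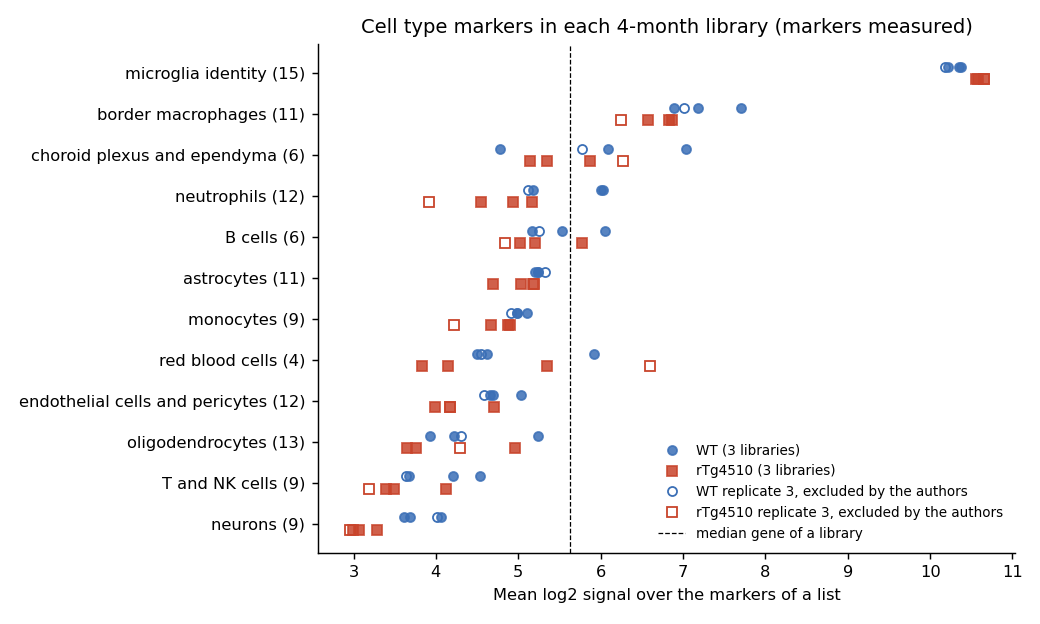
Mean log2 signal over the measured markers of each cell type (horizontal axis, number of markers in parentheses) in each library of 4 months, with WT as circles and rTg4510 as squares. Open symbols are the replicates excluded by the authors. Microglia markers lie above 10 in all libraries, and markers of neurons and neutrophils are lower in every rTg4510 library than in any WT library shown filled. For neutrophils the closest libraries are nearly tied, at 5.172 in rTg4510 and 5.175 in WT.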

How the data were processed

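Total RNA of the microglia was amplified with the NuGEN Ovation RNA-Seq V2 kit and sequenced. Per the labels and the study's methods, the authors rolled exon reads up to genes, removed an exon when 80% of the samples held under 10 counts for it, estimated a gene signal by a robust linear model, and deposited log2 signals after median normalization. The submitters' processing notes name GRCm38. The aligner and the strand setting are not given in the sources used here. Read counts were not used, so depth per library is unknown. All 32 columns were assigned by name, and 0 columns were left unused.

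Genes were fitted with limma 3.58.1 in R 4.3.3 as 8 group means over the 28 libraries that passed the authors' quality control, with unmoderated variances (20 residual degrees of freedom). P-values were adjusted by Benjamini-Hochberg over all 18588 genes of a contrast, and measure the spread between libraries, each a pool of animals. A difference between ages is the difference of 2 genotype effects in the same fit. Simulated data served as a test, with 18588 genes, and 5 unchanged genes were called there. Low values follow steps of log2(count + 1.5), from which floors and lower bounds were set. Symbols and gene types came from RefSeq by Entrez number. Tables were made with Python 3.11.15 and pandas 2.3.3, and drawn with matplotlib 3.10.9.

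The comparison and its gene lists were chosen with earlier results of these data known. Named were the 12 largest rises and falls among protein-coding DEGs with non-overlapping groups above the floor, the 5 largest lower bounds, up to 6 genes per direction for each difference between ages, 3 lncRNA genes per direction by the rule of the largest changes, Mapt and Prnp, and members of each list with the largest, smallest or defining values. Some list members are not reported here. Alternatives were the 6 libraries alone, moderated variances, all 32 libraries, quantile and upper quartile scaling, a filter at the 25th percentile of signal, a replicate block and leaving out each library.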

Additional observations from a re-analysis of the deposited data

Results flagged for a closer look

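The genotype effect of 4 months was tested against that of each other age, and genes passed where the difference itself had an FDR under 0.05 and was above 1.5 fold. This held for 867 genes against 2 months, 29 against 6 months and 26 against 8 months. Values below are differences of log2 fold changes, 4 months minus the other age, and the 3 tests share the libraries of 4 months.

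Against 6 months 22 genes had the higher effect, 7 of them members of the mitosis or replication lists. The 6 largest were those of Pimreg (3.77), Dtl (2.22), Mki67 (1.96), Top2a (1.91), Birc5 (1.83) and Aspm (1.79). Mki67 and Top2a had log2 fold changes of 0.83 and 1.01 at 4 months and of -1.13 and -0.9 at 6 months. The 6 largest lower effects of 7 were those of the lncRNA gene 4933416M07Rik (-2.75), the channel gene Hcn3 (-2.49), the dipeptidase gene Dpep2 (-2.36), Akr1c13 (-1.56), Lrguk (-1.04) and the apolipoprotein gene Apoa2 (-0.871). Lrguk was raised at both ages, by 1.97 at 4 and 3.01 at 6 months.

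Against 8 months the 6 largest higher effects were those of Ankle1 (3.3), Top2a (1.86), Bub1b (1.71), Mcm6 (1.67), Racgap1 (1.58) and Tnfrsf11b (1.52), of which Bub1b was not a DEG at 4 months. The 6 largest lower effects of 7 were those of 4933416M07Rik (-2.67), the proton pump subunit Atp6v0d2 (-2.13), the secreted peroxidase Gpx3 (-1.84), Apoa2 (-1.27), Irf1 (-0.962) and Lfng (-0.909). Gpx3 had -0.2 at 4 and 1.65 at 8 months. At 4 months Tnfrsf11b and Atp6v0d2 lay near the floor in WT, and 4933416M07Rik in rTg4510, so the sizes of their differences, here and against 6 months, depend on the floor.

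Against 2 months the largest higher effects among named genes were those of Cst7 (4.46), the Wnt antagonist gene Dkk2 (3.53), 5430400D12Rik (3.49) and Tnfrsf11b (3.47). The largest lower effects were those of Ripply3 (-3.57), the GABA receptor gene Gabrb1 (-3.29), Klri2 (-3.21), Gm11524 (-2.82) and Gm18684 (-2.52). Ripply3, Gabrb1 and Klri2 lay near the floor of the table in the rTg4510 libraries of 4 months, as did Dkk2 and Tnfrsf11b in WT, and these sizes depend on the floor as well. 5430400D12Rik was not a DEG at 4 months.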

How the results depend on the processing

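The number of DEGs at 4 months was 2564. It was 1561 with only the 6 libraries of 4 months in the fit, a design with fewer residual degrees of freedom, and 2236 when these 6 were fitted with moderated variances, an alternative chosen after seeing the data. Leaving out 1 of the 28 libraries at a time gave 2242 to 2578, the lowest without WT replicate 4 of 4 months. The other fits gave 2113 to 3033 DEGs, the highest with all 32 libraries, where 2048 of the 2564 were called. Raised genes made up 63.2% to 74.7% of the calls in all of these fits, and the median log2 fold change of all genes lay between -0.056 and -0.0237. With all 32 libraries the log2 fold change of Atp6v1f turned from 0.82 to -0.066, the cause was not tested, and it was the only reversal.

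The 867 genes that differed from 2 months became 579 without WT replicate 4 of 4 months and up to 1000 without another library. The 29 that differed from 6 months became 6 with all 32 libraries, 13 after quantile normalization and 7 without genes of low signal. Leaving out 1 library gave 6 to 33, and under 20 for replicates 1, 2 and 4 of rTg4510 at 2 months, 1 and 2 at 4 months, 1, 2 and 3 at 6 months and 2 at 8 months, and for WT replicates 3 at 2 months, 1, 2 and 4 at 4 months, and 3 and 4 at 6 months. The 26 that differed from 8 months became 49 with all 32 libraries and 13 to 45 with 1 library left out. The low end came without rTg4510 replicate 2 of 4 months or rTg4510 replicate 1 of 8 months, and the high end without WT replicate 2 of 8 months, while WT replicate 4 of 4 months left 17. The causes were not tested.

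The replicate numbers were tested as a pairing of WT and rTg4510 libraries. At 4 months the deviations of same-numbered libraries from their group means correlated with -0.0999, 0.124 and -0.0819, and libraries with different numbers with up to 0.154, so the numbers were not taken to pair the samples. With the replicate number as a block the counts were 2553 DEGs, of which 2378 were among the 2564, and 798, 11 and 19 genes that differed from 2, 6 and 8 months.

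For single genes, 15386 values of 448 genes over the alternatives kept direction and side of the threshold, 633 kept the direction but lost the call, 18 gained one and 1 reversed. Limits are set by 3 libraries per genotype, each a pool of animals, and by signals without read counts, so that depth per library is unknown. In simulated data, with 100 genes changed by 1 and 100 by 2 log2 units, the fit found 59% and 85% of them. Small changes can thus be missed. In the real comparison far more genes, 4317, had an FDR under 0.05, so these rates do not give the share missed there. Genes near the floor are the least certain. With only the 6 libraries of 4 months, raised genes of oxidative phosphorylation numbered 19 in place of 31, those of the interferon response 3 in place of 7 and those of channels and receptors 4 in place of 9, and lowered clock genes 5 in place of 8.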

Other observations

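Calls in opposite directions at 4 months and at another age were rare. Against 2 months this held for 1 gene, Mir3971. Raised at 4 months and lowered at 6 months were 13 genes, of which 12 were protein-coding and 7 were members of the mitosis or replication lists. Examples are Ckap2 (1.12 and -0.83), Ube2c (1.06 and -1.02), Hmmr (1.01 and -0.96) and Kif11 (0.79 and -0.89). The one other was the lncRNA gene Gm10804. Lowered at 4 and raised at 6 months were Akr1c13, 4933416M07Rik, Dpep2 and Hcn3. Raised at 4 and lowered at 8 months were 9 genes, among them Neil3, a DNA glycosylase of dividing cells (1.32 and -1.2). The test of the difference itself was passed by 11 of the 17 opposite calls against 6 months and 5 of the 10 against 8 months. These genes were chosen after their values were seen.

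Among genes called at 4 months and at no other age, those named here were chosen after their values were seen. Klri2, a lectin receptor of natural killer cells, had 3.62, 5.16 and 5.36 in WT and 2.97, 1.35 and 2.19 in rTg4510 and is uncertain because of related copies. Spib, a transcription factor of B cells and dendritic cells, had 5.64, 4.89 and 6.49 and 2.77, 4.94 and 1.86, with overlapping groups. Nlrp10, of the NOD-like receptor family, had 4.09, 4.2 and 3.78 and 1.55, 2.57 and 1.45. Galnt9, a glycosyltransferase known from brain, had 2.24, 1.62 and 2.68 and 3.87, 4.72 and 4.67.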
